A study of Mus musculus with 12 samples.

Results

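Solute carriers are the membrane proteins that move nutrients, ions and metabolites into, out of and within the cell, and their mRNA were described here in mouse cytotoxic T lymphocytes (CTL), effector CD8 T cells grown in culture. The members were the genes whose symbol begins with Slc, a number, the letter a and a second number, and whose mean level was at least 1 FPKM (fragments per kilobase of exon, scaled to library size) over the 12 libraries. Slc2a1, Slc2a3 and Slc16a3 were left out by name. Of the 13283 genes tested, 183 had such a symbol, 47 of these lay under 1 FPKM, and 133 from 41 families were members. The lowest members were Slc41a3 at 1.03, Slc37a2 at 1.12 and Slc26a6 at 1.15 FPKM, and the nearest genes under the threshold were Slc12a2 at 0.94, Slc6a9 at 0.93 and Slc22a15 at 0.91 FPKM. Of the 133, 128 encode carriers and 5 do not: Slc9a3r1, a scaffold protein that binds transporters, Slc7a6os and Slc4a1ap, whose symbols are built on that of a carrier, the pseudogene Slc2a4rg-ps and the antisense RNA Slc36a3os. All 4 groups of 3 libraries came from female mice, 11 to 27 weeks old in the study, that carried a Cre recombinase driven by the granzyme B promoter (GzmB cre+). WT CTL had only the Cre, whereas FOXO1-GFP KO CTL also had a floxed Foxo1-GFP allele that the Cre deletes once effector cells switch granzyme B on. T cells from lymph nodes or spleens were activated through CD3 and CD28 for 48 h and expanded with the cytokines IL-2 at 20 ng/mL plus 2 ng/mL of IL-12, and from day 6 each genotype was kept for 24 h with vehicle (DMSO) or with IC87114 at 10 µM, an inhibitor of the PI3K subunit p110δ (PI3Kdi). KO cells were then sorted as CD8+ GFP- and WT cells as CD8+, so that genotype and the sorting gate cannot be told apart.

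Libraries held 12.9 to 48.0 M reads. Their mean was 33.7 M for WT and 16.6 M once PI3Kdi was added, while KO CTL averaged 22.7 M, and 23.1 M once inhibited, and the least covered member had 14 reads in a library. Foxo1, the deleted gene, was at 5.77 to 10.5 FPKM in the 6 WT libraries and at 0.58 to 1.75 FPKM in the 6 KO libraries. The 9 CD8 T cell genes examined (Cd3e, Cd8a, Gzmb and others) summed to 9350 to 13785 FPKM, and the 3 CD4 T cell genes to 4.96 to 8.24 FPKM. The 7 B cell genes summed to 19.9 to 27.1 FPKM in the WT libraries and to 8.90 to 11.98 FPKM in the KO libraries, while Ms4a1, Cd79a, Pax5 and Iglc2 were not analysed here and Igkc was listed at 0 in a library. The 6 myeloid genes summed to 33.8 to 66.4 FPKM over all groups, with Lyz2, Csf1r and Adgre1 among those not analysed here. Paired libraries of replicate number 1 in WT, and of number 3 in KO, lay at opposite ends of the main axis of variation of the members, so counts are also given without them. The labels call the samples biological replicates but do not tie them to animals, so p-values measure the spread between these libraries.

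An activated T cell grows and divides quickly and depends on imported amino acids, sugars and ions for its building blocks. System L carriers such as Slc7a5, which pairs with the heavy chain Slc3a2, exchange large neutral amino acids and so feed the growth kinase mTORC1, Slc1a5 takes up glutamine, and the Slc25 family carries metabolites across the inner mitochondrial membrane. PI3K signalling keeps FOXO transcription factors out of the nucleus through the kinase AKT, so the design asks which transporter mRNA follow p110δ activity in effector cells and whether they do so in cells without FOXO1.

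The members made up 0.517 to 0.731% of a library's summed FPKM, with a median of 0.638%. Expression was uneven, since 8 members were at 50 FPKM or more and 63 were under 5 FPKM. The 10 most abundant held 49.01 to 56.1% of the members' FPKM in a library. The order of levels was much alike in all groups, with a Spearman rho between group means of 0.9746 to 0.990 over the 133 members, as a description of genes measured in the same kind of cell.

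**Figure D1:**
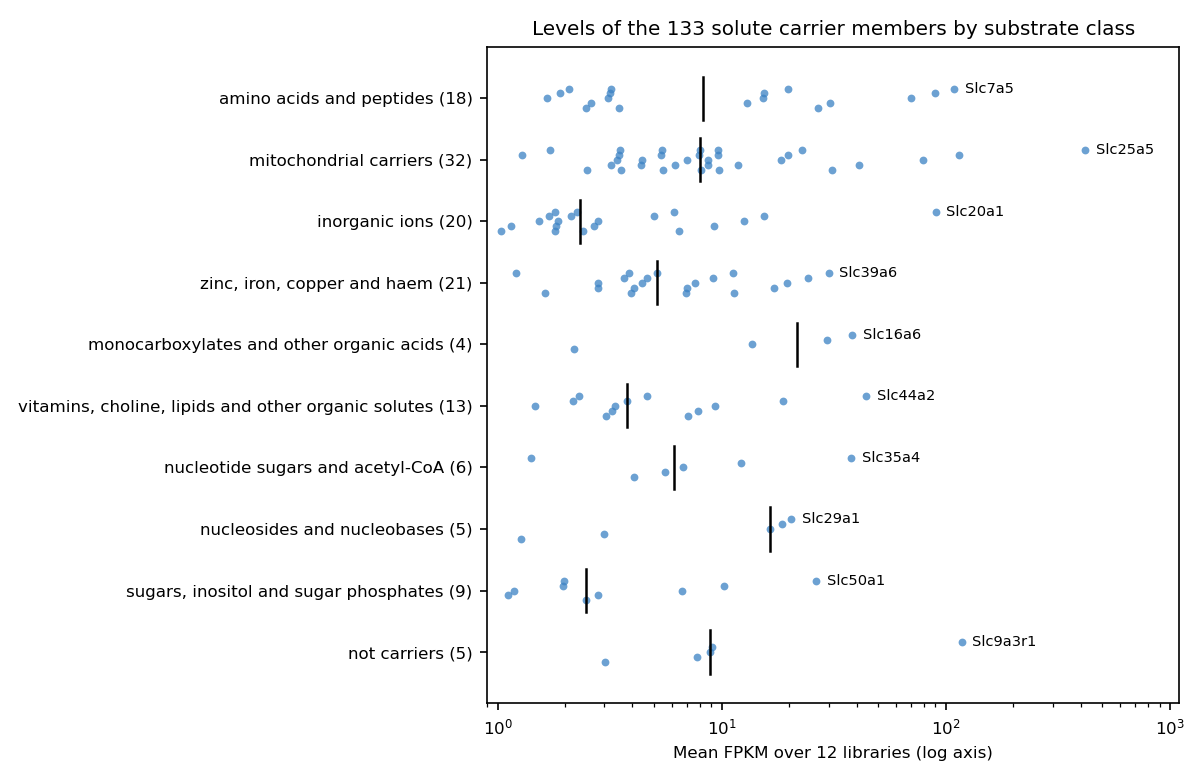
Mean FPKM over the 12 libraries (log axis) of each of the 133 members, in rows by substrate class with the number of members; each point is a gene, the black bar is the class median and the most abundant gene is named. Mitochondrial carriers spanned 1.29 to 419 FPKM, and sugar carriers had a median of 2.49 FPKM.

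Mitochondrial carriers were the largest class, with 32 members and 40.8% of the members' FPKM. Slc25a5, an ADP/ATP carrier that exports ATP from the matrix, was the most abundant member at a mean of 419 FPKM. It was followed by Slc25a4, a second ADP/ATP carrier, at 114 FPKM and by the phosphate carrier Slc25a3 at 79.2 FPKM. The class summed to 803 FPKM in its lowest library and 959 in its highest, and the mean (± SD, n = 3) was 894 ± 52.4 for WT and 860 ± 46.5 for the inhibited WT CTL, against 916 ± 38.6 for KO CTL and 885 ± 71.5 for those given PI3Kdi. The SDs overlapped for every pair of groups.

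The 18 carriers of amino acids and peptides held 18.97% of the members' FPKM, and 3 of them held most of that. Slc7a5 (chromosome 8, 121881150 to 121907694, minus strand, GRCm38) averaged 109 FPKM, Slc1a5 89.7 FPKM and Slc3a2 (chromosome 19, 8706882 to 8723369, minus strand) 70.1 FPKM. Slc7a5 exceeded its partner Slc3a2 in all 12 libraries, by a ratio of 1.07 to 2.17. Slc38a10 came next at 30.6 FPKM, followed by the neutral amino acid carriers Slc38a2 at 26.8 and Slc38a1 at 15.5 FPKM, the taurine carrier Slc6a6 at 19.8 FPKM and the arginine and lysine carrier Slc7a1 at 15.3 FPKM, and Slc7a6 of system y+L was at 12.9 FPKM. Summed over the class, WT CTL had 411 ± 35.6 FPKM (SD, n = 3), which was 376 ± 38.96 after PI3Kdi, and KO CTL had 457 ± 70.5, which was 410 ± 60.2 after PI3Kdi.

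Among the 20 carriers of inorganic ions, Slc20a1, a sodium-driven phosphate importer, stood at 90.0 FPKM, and the potassium chloride exporter Slc12a4 at 15.5 FPKM. The 21 carriers of zinc, iron, copper and haem had a median of 5.16 FPKM and were led by the zinc importer Slc39a6 at 30.1, the lysosomal haem carrier Slc48a1 at 24.2 and the zinc importer Slc39a1 at 19.6 FPKM. The iron carrier Slc11a2 was at 3.69 FPKM. Carriers of monocarboxylates and other organic acids numbered 4, with Slc16a6 (MCT7) at 38.3 FPKM, the lactate and pyruvate carrier Slc16a1 at 29.6 and Slc17a9, which loads ATP into vesicles, at 13.6 FPKM. The choline-like carrier Slc44a2 at 44.3 FPKM led the 13 carriers of vitamins, choline, lipids and other organic solutes, ahead of the riboflavin carrier Slc52a3 at 18.8, Slc10a3 at 9.30 and the folate carrier Slc19a1 at 7.84 FPKM. Nucleosides and nucleobases were served by 5 members, among them Slc29a1 at 20.5, Slc43a3 at 18.6 and Slc28a2 at 16.4 FPKM, the last of which has a near-identical copy, Slc28a2b, so that the assignment of reads between them is uncertain. The 6 Golgi and endoplasmic reticulum carriers of nucleotide sugars and acetyl-CoA were led by Slc35a4 at 37.8, Slc33a1 at 12.1 and Slc35a1 at 6.70 FPKM. The 9 sugar and sugar phosphate carriers summed to 54.9 FPKM, 26.5 FPKM of it from Slc50a1, and this sum leaves out Slc2a1 at 36.9 and Slc2a3 at 27.2 FPKM, which the rule for members omits by name.

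RefSeq promoter windows (GRCm38.p6, 300 bases around the start of a gene) were at hand for 98 of the 133 members. They are shown for carriers on which the comparisons turn (the first of the Slc24a3 and Slc20a1 windows), and for the abundant phosphate carrier Slc20a1 as a window with motifs. Capitals mark CACGTG, the E box bound by MYC family factors.
Slc16a10, chr10:40142205-40142504, minus strand: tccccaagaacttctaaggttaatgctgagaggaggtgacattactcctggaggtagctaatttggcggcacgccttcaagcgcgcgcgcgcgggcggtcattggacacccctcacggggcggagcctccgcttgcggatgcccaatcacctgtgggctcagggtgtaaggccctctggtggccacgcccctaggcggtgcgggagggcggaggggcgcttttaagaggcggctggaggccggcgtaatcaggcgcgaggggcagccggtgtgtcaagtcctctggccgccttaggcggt
Slc24a3, chr2:145167525-145167824, plus strand: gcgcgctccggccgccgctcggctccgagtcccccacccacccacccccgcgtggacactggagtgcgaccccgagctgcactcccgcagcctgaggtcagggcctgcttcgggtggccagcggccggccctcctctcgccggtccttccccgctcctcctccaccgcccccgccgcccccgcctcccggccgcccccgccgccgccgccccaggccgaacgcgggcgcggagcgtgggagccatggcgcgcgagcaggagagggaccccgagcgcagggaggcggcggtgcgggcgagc
Slc37a2, chr9:37255689-37255988, minus strand: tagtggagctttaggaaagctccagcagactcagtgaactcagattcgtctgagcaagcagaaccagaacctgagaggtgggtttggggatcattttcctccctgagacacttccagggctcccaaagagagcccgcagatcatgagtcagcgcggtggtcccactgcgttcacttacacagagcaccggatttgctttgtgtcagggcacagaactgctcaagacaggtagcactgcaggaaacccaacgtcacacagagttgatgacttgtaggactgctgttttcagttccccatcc
Slc20a1, chr2:129198523-129198822, plus strand: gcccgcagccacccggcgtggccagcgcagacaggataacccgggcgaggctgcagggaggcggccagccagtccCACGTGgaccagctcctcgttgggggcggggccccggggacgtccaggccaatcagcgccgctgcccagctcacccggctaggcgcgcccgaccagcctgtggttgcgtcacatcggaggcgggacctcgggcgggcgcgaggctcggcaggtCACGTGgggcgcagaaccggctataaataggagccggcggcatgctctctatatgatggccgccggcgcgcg
The Slc20a1 window holds 2 E boxes, and the other windows shown hold none. CACGTG, which reads the same on both strands, was in a promoter window of 22 of the 98 members (22.45%), against 8.09% of 27025 genes with a window and 12.25% of the 7821 that averaged 1 FPKM or more. GTAAACA, a FOXO motif searched on both strands, was in 1 of the 98 (1.02%, Slc5a6, a carrier of biotin and pantothenate), against 4.05% and 2.93%. ACGTG, the hypoxia response core, searched on both strands and contained in each CACGTG, was in 34 of the 98 (34.7%), against 21.8% and 30.6%. The windows of the members had a median GC content of 61.7%, against 52.7% for all windows and 60.7% for those of the genes at 1 FPKM or more. A match describes letters in a window and not a bound site.

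The first comparison asked which transporter mRNA in WT CTL followed 24 h of p110δ inhibition. Without a block for paired libraries, limma called none of the 133 members at a Benjamini-Hochberg adjusted p under 0.05 and a fold change over 1.5, the background being 0.0979% of all genes, and 4 members had an unadjusted p under 0.05, as did 5.14% of all genes. Vehicle and PI3Kdi libraries of the same number deviated together within a genotype, and with that replicate block 3 members were called, 2.26% of them against 2.57% of all genes. Slc7a3 and Slc16a10 fell, as did 1.05% of all genes, and Slc24a3 rose, as did 1.53%. Leaving out WT replicate 1 of both treatments, a choice made after seeing the data, also gave 3 calls with the block.

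Slc7a3 encodes CAT3, a carrier of the cationic amino acids arginine, lysine and ornithine, and lies on chromosome X from 101079210 to 101086020 (minus strand). Replicates 1 to 3 of WT had 2.03, 2.12 and 1.90 FPKM, and those of WT+PI3Kdi had 1.19, 1.30 and 0.94 FPKM. Every PI3Kdi library lay under every vehicle library. The mean went from 2.02 ± 0.111 to 1.14 ± 0.184 FPKM (SD, n = 3), a change of -0.78 on the log2(FPKM + 0.1) scale (SE 0.10 with the block; adjusted p = 0.000754 with and 0.355 without it). All fold changes below are on this scale, which understates those of low genes.

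Slc16a10 encodes TAT1, a carrier of aromatic amino acids, and lies on chromosome 10 from 40033532 to 40142258 (minus strand). It was at 3.88, 3.32 and 4 FPKM in WT and at 2.74, 1.94 and 2.38 FPKM in WT+PI3Kdi, again with no overlap. The log2 change was -0.65 (SE 0.11 with the block; adjusted p = 0.00334 with and 0.709 without it). Slc24a3, an exchanger that moves calcium against sodium and potassium, lies on chromosome 2 from 145167754 to 145642166 (plus strand) and went the other way. Its level was 2.64, 1.82 and 2.22 FPKM in WT and 3.61, 3.34 and 4.99 FPKM in WT+PI3Kdi. The inhibited libraries were all above the vehicle libraries, with a log2 change of 0.80 (SE 0.11 with the block; adjusted p = 0.00108 with and 0.154 without it).

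With the block, a further 4 members passed the adjusted p without the fold, so that 7 in all did, or 5.26% against 7.41% of all genes. Of the 7, 6 fell and 1 rose, beside 3.53% and 3.88% of all genes. Slc16a6 had a log2 change of -0.42 (adjusted p = 0.0133), and Slc1a4 (ASCT1, a carrier of alanine, serine and cysteine) one of -0.46 (adjusted p = 0.0370). Slc25a25, an ATP and phosphate carrier of the mitochondrion, had -0.29 (adjusted p = 0.0406), and the Golgi zinc carrier Slc30a6, named after its values were seen, had -0.25 (adjusted p = 0.0262). The most abundant nutrient carriers moved little. Slc7a5 was at 128, 108 and 88.7 FPKM in WT and at 114, 86.3 and 73.6 FPKM in WT+PI3Kdi. Each of its pairs was lower with PI3Kdi while the groups overlapped, and the log2 change was -0.25 with a 95% interval of -0.48 to -0.02 in the blocked fit (adjusted p = 0.177). Slc3a2 had a log2 change of -0.17 (interval -0.29 to -0.06, adjusted p = 0.0726), Slc1a5 one of -0.06 (-0.16 to 0.04) and Slc25a5 one of -0.08 (-0.24 to 0.07). Over the 133 members, the blocked 95% interval lay within a 2-fold change either way for 132 and within 1.5-fold for 120.

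The same comparison in FOXO1-GFP KO CTL gave 0 calls without the block, beside 0.0452% of all genes, with 7 members at an unadjusted p under 0.05 (5.17% of all genes). With the block it gave 3 calls, 2.26% of the members against 2.79% of all genes. Slc16a10 and Slc5a11 fell, as did 0.964% of all genes, and Slc46a3 rose, as did 1.82%. With both libraries of KO replicate 3 left out, a choice made after seeing the data, the block called 1 member, Slc16a10.

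Slc16a10 was at 3.86, 5.8 and 3.66 FPKM in FOXO1-GFP KO and at 1.94, 3.04 and 1.62 FPKM in FOXO1-GFP KO+PI3Kdi. No inhibited library reached the lowest vehicle library, and the log2 change of -0.998 was the largest among the 133 members in either genotype (SE 0.11 with the block; adjusted p = 0.000380 with and 0.390 without it). Slc5a11, which imports myo-inositol with sodium, lies on chromosome 7 from 123214780 to 123273253 (plus strand). It was at 1.21, 1.75 and 1.69 FPKM without and 1.02, 0.88 and 0.72 FPKM with PI3Kdi, from 35 to 166 reads in a library. Its groups did not overlap, and the log2 change was -0.76 (SE 0.15 with the block; adjusted p = 0.0117 with and 0.471 without it).

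Slc46a3, a carrier of the lysosomal membrane, lies on chromosome 5 from 147878437 to 147894815 (minus strand). Its level was 1.79, 2.38 and 1.55 FPKM in KO CTL and 2.80, 2.82 and 3.09 FPKM in those given PI3Kdi. The inhibited libraries were higher without overlap, by a log2 change of 0.60 (SE 0.12 with the block; adjusted p = 0.0121 with and 0.593 without it). Removing single libraries changed these counts with the block: Slc16a10 alone was called without replicate 3 of either KO group, Slc16a10 and Slc46a3 without replicate 2 of either, and 6 members without FOXO1-GFP KO+PI3Kdi replicate 1.

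Regardless of fold, 16 members had an adjusted p under 0.05 in KO with the block, 12.03% against 10.1% of all genes. Of the 16, 11 fell and 5 rose, beside 4.06% and 6.02% of all genes. Among them were Slc16a6 (log2 change -0.53, adjusted p = 0.00454), Slc7a3 (-0.48, adjusted p = 0.0136), Slc29a2 (-0.42, adjusted p = 0.0423) and Slc25a25 (-0.32, adjusted p = 0.0250). Slc16a6 was at 50.1, 41.8 and 33.4 FPKM without and at 37.95, 26.9 and 22.9 FPKM with PI3Kdi, lower in each pair although the groups overlapped. Those that rose were Slc25a45, a mitochondrial carrier (0.52, adjusted p = 0.0111), Slc36a3os (0.47, adjusted p = 0.0134), Slc46a3, the sugar carrier Slc50a1 (0.26, adjusted p = 0.0490) and Slc44a2 (0.19, adjusted p = 0.0157), of which Slc25a45 was chosen for naming after its values were seen. Slc44a2 was at 40.9, 42.1 and 44.1 FPKM without and at 47.7, 48.4 and 48.6 FPKM with PI3Kdi. Its shift was small, and the groups did not overlap. Slc7a5 had a log2 change of -0.28 (interval -0.51 to -0.06, adjusted p = 0.101), Slc3a2 one of -0.08 (-0.19 to 0.04) and Slc1a5 one of -0.04 (-0.14 to 0.06).

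**Figure D2:**
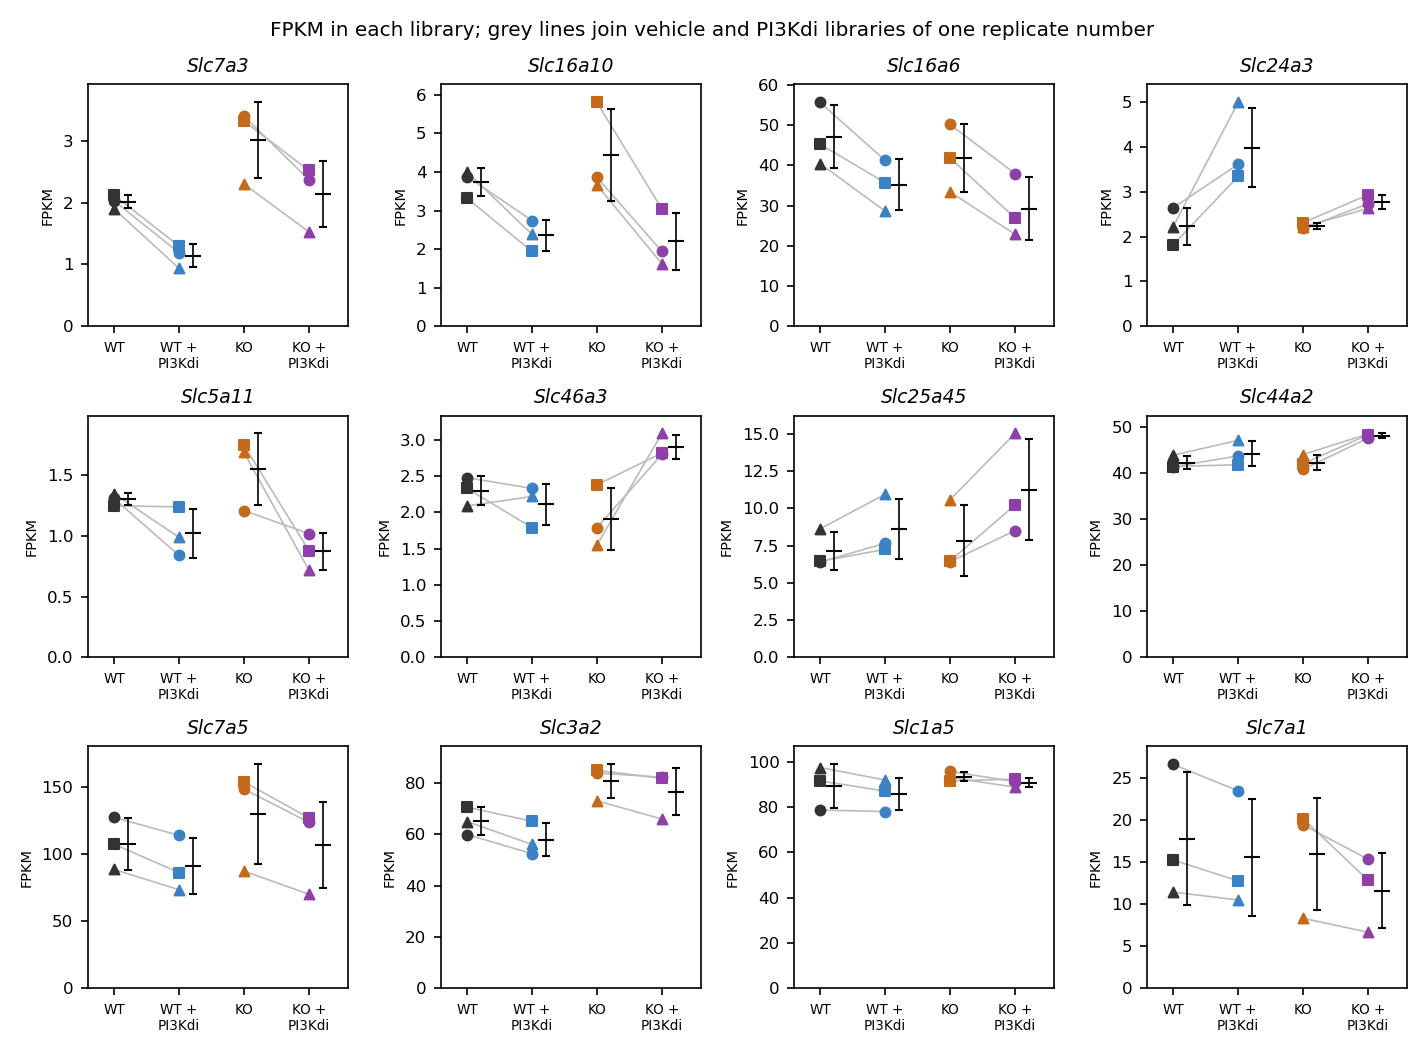
FPKM of 12 members in each library (points, shaped by replicate number; y axes start at 0) with the mean ± SD of each group of 3 (black); grey lines join vehicle and PI3Kdi libraries of one number within a genotype. Slc16a10 and Slc7a3 were lower with PI3Kdi in each of the 6 pairs, while Slc1a5 stayed between 78.0 and 97.4 FPKM.

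Directions were compared between genotypes, whose libraries are separate. The log2 changes with PI3Kdi correlated between WT and KO with a Pearson r of 0.598 over the 133 members, against 0.438 over the 10373 genes averaging 1 FPKM or more, and 102 members (76.7%) had the same sign against 70.3% of those genes. Both are descriptions across genes, which are not independent. In all 6 pairs 26 members were lower with PI3Kdi (19.5%, against 13.98% of all genes) and 12 were higher (9.02%, against 9.20%). The 26 included the amino acid carriers Slc7a3, Slc16a10, Slc7a5, Slc7a1 and Slc3a2, the monocarboxylate carriers Slc16a6 and Slc16a1, the zinc carriers Slc30a1 and Slc39a10 and the copper importer Slc31a1. Slc24a3, Slc44a2 and the nucleoside carrier Slc28a2 were among the 12. Fewer cells of a type and less mRNA per cell cannot be told apart in such bulk samples.

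Of the genes averaging 1 FPKM or more, 6370 of 10373 had a negative fitted change in WT and 5676 in KO, as had 90 and 87 of the 133 members. Among amino acid carriers 16 of 18 were negative in WT (median -0.10) and 15 of 18 in KO (median -0.13). Zinc, iron, copper and haem carriers had 15 of 21 in WT (median -0.11) and 17 of 21 in KO (median -0.14). Ion carriers had 9 of 20 negative in WT and 10 of 20 in KO. Mitochondrial carriers had 23 of 32 negative in WT (median -0.04) and 20 of 32 in KO (median -0.08). The median over the 133 members was -0.05 in WT and -0.08 in KO, against -0.04 and -0.02 over genes at 1 FPKM or more. Members counted by lack of overlap between groups were 7 higher and 10 lower in WT, beside 4.43% and 5.81% of all genes, and 8 higher and 7 lower in KO, beside 5.28% and 4.8%.

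**Figure D3:**
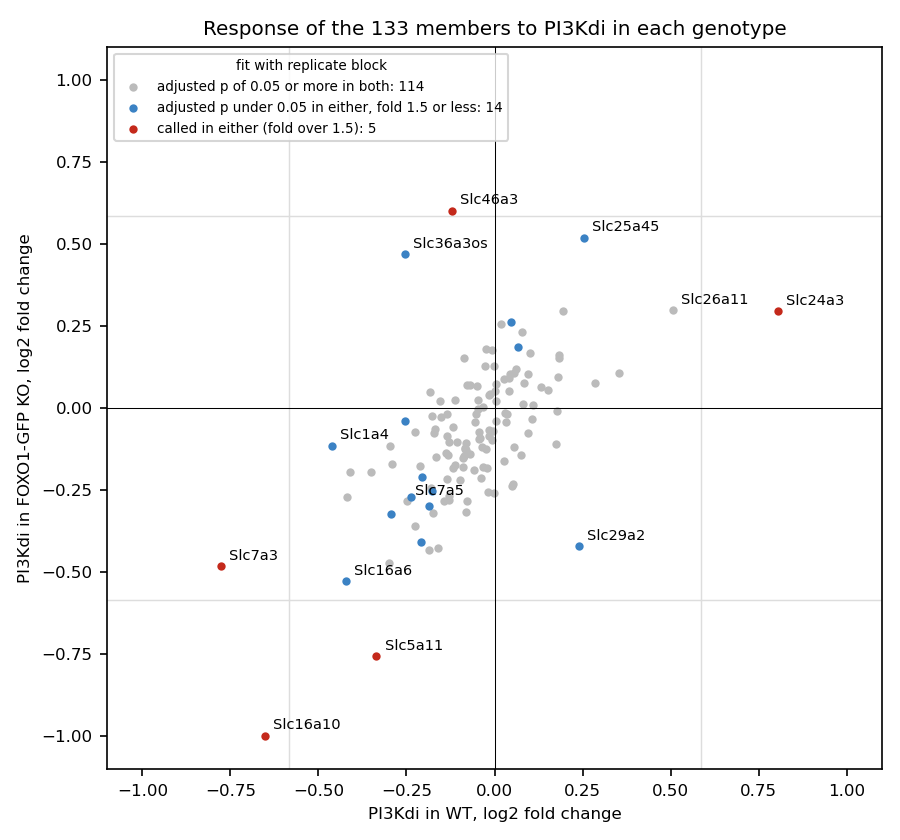
Log2 fold change with PI3Kdi in WT (x) and in FOXO1-GFP KO CTL (y) of the 133 members, coloured by the outcome of the fit with the replicate block; grey lines mark a 1.5-fold change. Slc16a10 lay lowest on the y axis at -0.998, Slc24a3 furthest right at 0.80, and 102 members had the same sign on both axes.

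The difference between the responses was tested as an interaction in the same fit. No member was called with or without the block, beside 0% of all genes without it and 0.0226% with it, while 2 members had an unadjusted p under 0.05 without it and 9 with it (1.51% and 10.8% of all genes). The responses of Slc16a10 (difference of log2 changes, KO minus WT, -0.35, adjusted p = 0.426 with the block), Slc7a3 (0.30, adjusted p = 0.485) and Slc24a3 (-0.51, interval -0.85 to -0.17, adjusted p = 0.233) were thus not shown to differ between genotypes. Slc46a3 had a difference of 0.72 (adjusted p = 0.134). In 3 members, Slc29a2, the zinc importer Slc39a1 and Slc36a3os, all pairs of WT moved one way and all pairs of KO the other, which was 2.26% of the members against 3.03% of all genes. Slc29a2, which encodes the equilibrative nucleoside carrier ENT2, had 0.79, 1.17 and 1.2 FPKM in WT CTL and 1.04, 1.33 and 1.38 FPKM after PI3Kdi. KO CTL had 2.10, 1.44 and 1.24 FPKM, which PI3Kdi left at 1.51, 1.19 and 0.81 FPKM. It was highest in vehicle-treated KO CTL, and its difference was -0.66 (adjusted p = 0.142). Slc36a3os had the smallest adjusted p of the interaction, 0.0851 with the block, on 14 to 88 reads in a library.

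The next comparison asked which transporter mRNA differed in CTL without FOXO1. Without PI3Kdi, 0 members were called by limma with or without the block, beside 0.331% of all genes without it and 0.233% with it, and 11 and 12 had an unadjusted p under 0.05 (6.51% and 5.09% of all genes). With PI3Kdi 1 member was called without the block, Slc37a2, which was lower in KO, beside 1.45% of all genes called and 1.02% called lower. With the block 0 were, beside 1.18%. An unadjusted p under 0.05 was found for 12 members without the block and 15 with it (10.2% and 9% of all genes). Voom on estimated reads with the block called 1 member, Slc37a2 (adjusted p = 0.0417). With both libraries of WT replicate 1 left out no member was called, and with both of KO replicate 3 left out 1 was, which was not Slc37a2.

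Slc37a2 belongs to a family of endoplasmic reticulum exchangers of sugar phosphate and phosphate and lies on chromosome 9 from 37227585 to 37255738 (minus strand). WT libraries had 1.48, 1.24 and 1.48 FPKM, and 1.53, 1.31 and 1.30 FPKM after PI3Kdi. KO libraries had 0.93, 0.95 and 0.91 FPKM, and 0.70, 0.79 and 0.80 FPKM after PI3Kdi. None of the 6 KO libraries reached the lowest of the 6 WT libraries. Every KO library was under 1 FPKM, so Slc37a2 met the rule for members only through the WT libraries, where it is high, and its call is therefore a description of a gene so admitted. The log2 difference between genotypes was -0.54 without PI3Kdi (adjusted p = 0.185) and -0.78 with it (SE 0.14, adjusted p = 0.0177; SE 0.17 and adjusted p = 0.0588 with the block). The call was lost when any one library of WT+PI3Kdi or FOXO1-GFP KO+PI3Kdi was left out. A gene on the opposite strand, Gm10177, overlaps it with a mean of 8.02 FPKM and log2 differences of 0.10 and -0.06.

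Other members of the family were lower in KO without passing the test. Slc37a4, the glucose 6-phosphate carrier, was at 10.9 to 12.8 FPKM in the 6 WT libraries and at 8.22 to 9.24 FPKM in the 6 KO libraries, with log2 differences of -0.41 (adjusted p = 0.130) and -0.36 (adjusted p = 0.124). Slc37a3 was at 6.70 to 8.59 and 5.18 to 6.08 FPKM, with log2 differences of -0.36 (adjusted p = 0.450) and -0.44 (adjusted p = 0.157). Slc37a1, named after its values were seen, was at 2.7 to 2.9 FPKM in all 12 libraries, the lowest ratio of the top to the bottom library of any member (1.07). Of the 9 sugar and sugar phosphate carriers, 7 had a negative difference with and 7 without PI3Kdi, with medians of -0.19 and -0.17. Both counts include Slc37a2, which was admitted only through the WT libraries. The medians over the 133 members were -0.05 and -0.02.

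Amino acid carriers went in both directions. Slc43a2, the system L carrier LAT4, was at 4.89, 3.67 and 3.04 FPKM in WT and 2.52, 2.89 and 2.18 FPKM in FOXO1-GFP KO, a log2 difference of -0.58 (adjusted p = 0.412) that was -0.62 with PI3Kdi (adjusted p = 0.2002). Its groups did not overlap in either comparison. Slc3a2 was at 59.9, 70.5 and 65.0 FPKM in WT and 83.9, 85.0 and 73.0 FPKM in FOXO1-GFP KO, a log2 difference of 0.31 (adjusted p = 0.600), and it had one of 0.40 with PI3Kdi (adjusted p = 0.192). Slc7a3 was at 3.40, 3.32 and 2.30 FPKM in KO CTL and at 2.37, 2.52 and 1.53 FPKM in those given PI3Kdi, each group above the WT group of the same treatment. Its log2 differences were 0.53 (adjusted p = 0.610) and 0.83 (adjusted p = 0.105), the second of which uses the same WT+PI3Kdi libraries as its fall in WT. Slc7a5 had differences of 0.24 and 0.20, with overlapping groups.

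Among ion and metal carriers, Slc26a11, an anion carrier that transports sulphate, had 1.75, 1.49 and 2.39 FPKM in WT CTL, where PI3Kdi libraries had 2.28, 2.24 and 3.67 FPKM. KO CTL had 0.90, 1.09 and 1.59 FPKM, and with PI3Kdi 1.02, 1.90 and 1.57 FPKM. Its log2 difference was -0.62 (adjusted p = 0.783) and, with PI3Kdi and without overlap, -0.83 (adjusted p = 0.275). The study, which used voom on counts, lists Slc26a11 as induced by PI3Kdi in WT CTL. It also lists the gene as lower in inhibited KO than in inhibited WT CTL. The FPKM fit used here called it in neither comparison, with or without the block. The zinc importer Slc39a4, named after its values were seen, was at 7.89 to 9.36 FPKM in WT libraries and 6.17 to 7.56 FPKM in KO libraries, with log2 differences of -0.23 (adjusted p = 0.767) and -0.42 (adjusted p = 0.0952). Slc28a2 had -0.33 and -0.28 (adjusted p = 0.711 and 0.567). Members without overlap were 7 higher and 12 lower without PI3Kdi, beside 3.54% and 6.79% of all genes, and 7 higher and 14 lower with it, beside 6.85% and 7.9%. The summed B cell genes were lower in every KO library than in every WT library, and their part in these differences was not tested. Their sum includes Jchain, which the study lists as FOXO1 dependent in these CTL. Ighm had log2 differences of -1.60 and, with PI3Kdi, -2.38 (adjusted p = 0.0153 and 0.000831 without the block). Those of Cd79b were -0.51 and -0.28 (adjusted p = 0.597 and 0.734).

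**Figure D4:**
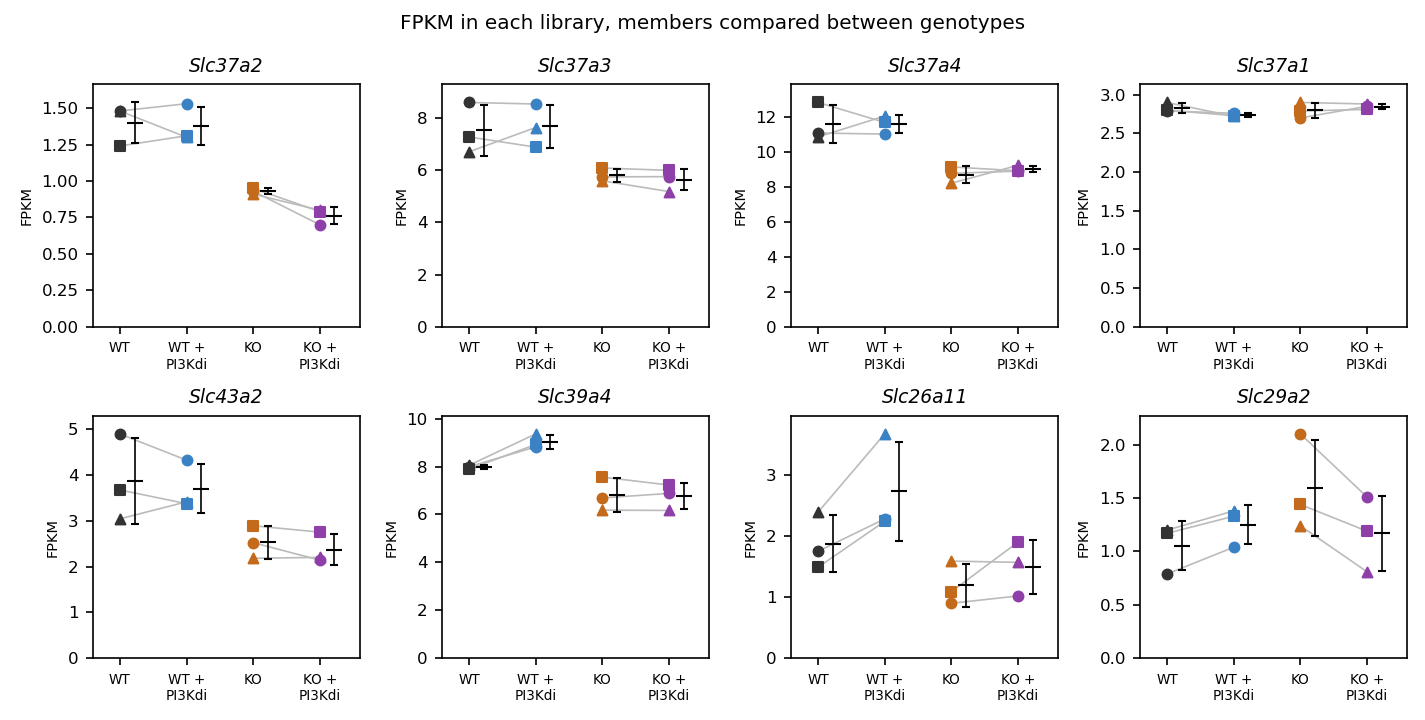
FPKM of 8 members in each library (points, shaped by replicate number; y axes start at 0) with the mean ± SD of each group of 3 (black). Slc37a2, Slc37a3 and Slc37a4 had all KO libraries under all WT libraries, and Slc37a1 ranged from 2.7 to 2.9 FPKM. Slc37a2 met the rule for members only through the WT libraries.

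Most of the variation of the members followed the paired cultures. The share of a member's sum of squares that lay between pairs of one genotype had a median of 65.6%, against 65.1% for genes at 1 FPKM or more. Of the 133, 91 (68.4%) had over 50% there, much as did 69.1% of those genes. Genotype took a median of 9.51% and PI3Kdi 7.58%, against 8.27% and 6.39% for those genes. For a few members the order was different: genotype took 88.0% for Slc37a4, 87.4% for Slc37a2 and 76.5% for Slc37a3, and PI3Kdi took 69.3% for Slc16a10, 63.1% for Slc5a11 and 56.8% for Slc24a3. Slc37a2 met the rule for members only through the WT libraries, so its share merely describes a gene so admitted.

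The first component of the members held 55.7% of their variance, 81.3% of it between pairs. WT replicate 1 and WT+PI3Kdi replicate 1 lay at one end, and FOXO1-GFP KO and FOXO1-GFP KO+PI3Kdi replicate 3 at the other. Slc7a1 was at 26.7 and 23.5 FPKM in the former pair and at 8.34 and 6.69 FPKM in the latter. The bicarbonate carrier Slc4a7, chosen after its values were seen, had the highest ratio of the top to the bottom library of any member, 5.38, from 0.71 FPKM in FOXO1-GFP KO+PI3Kdi replicate 3 to 3.82 FPKM in WT replicate 1. Slc39a10, a zinc importer, had a range of 1.06 to 4.35 FPKM between the same libraries, and the taurine carrier Slc6a6 had 92.0% of its variation between pairs. The loading of a member on this component correlated with the log2 of its exon length at r = 0.367 and rho = 0.358 over the 133 members, which share libraries, and the part of length in the component was not tested. The second component held 17.2%, of which 60.6% followed genotype and 30.5% PI3Kdi.

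**Figure D5:**
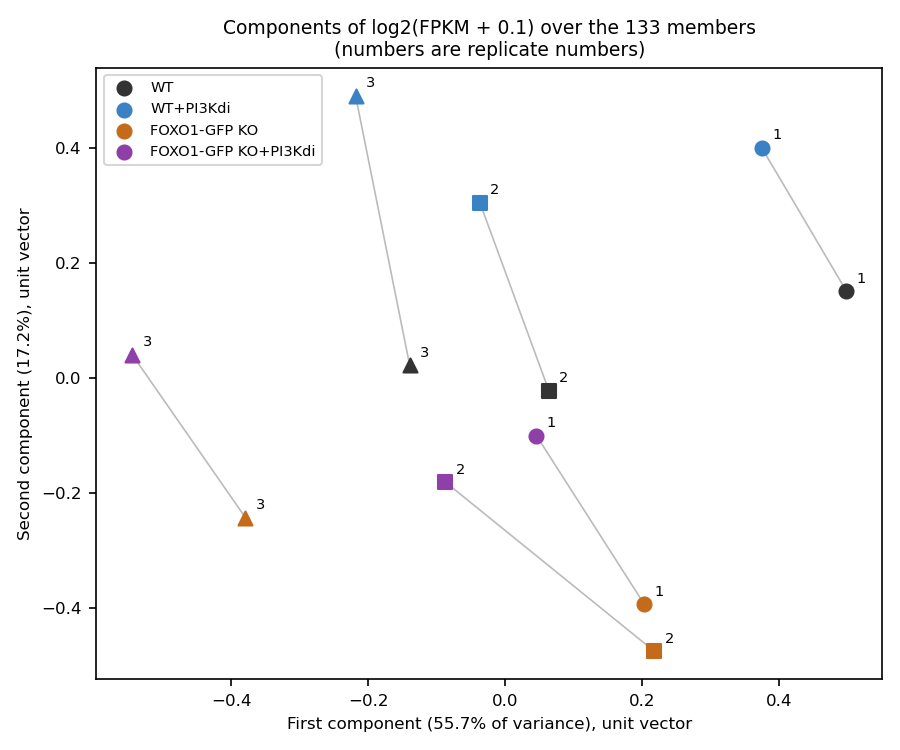
First (55.7% of variance) and second (17.2%) principal components of log2(FPKM + 0.1) over the 133 members, as unit vectors over the 12 libraries; colours are groups, numbers and shapes are replicate numbers and grey lines join the pairs of a genotype. WT pair 1 and KO pair 3 lay at opposite ends of the first component.

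Other genes of transport were read from fixed lists. Of 26 carriers and carrier partners with other symbols (Bsg, Mpc1, Xpr1, Spns1 and others), 0 were called in any of the 5 comparisons. With the block and regardless of fold, 4 of the 26 rose with PI3Kdi in WT and 5 in KO, beside 3.88% and 6.02% of all genes, among them Emb, a partner of monocarboxylate carriers, with log2 changes of 0.52 in WT (adjusted p = 0.000124) and 0.38 in KO (adjusted p = 0.00116). Emb was also lower in KO than in WT with PI3Kdi, by a log2 difference of -0.58 (adjusted p = 0.0138 with and 0.0156 without the block). Of 16 genes of the amino acid response, 0 were called. With the block and regardless of fold, 3 of the 16 fell in WT, beside 3.53% of all genes, among them Asns, the asparagine synthetase (-0.43, adjusted p = 0.0140). In KO 1 fell, Psat1 (-0.31, adjusted p = 0.0175), beside 4.06% of all genes, and 1 rose, Ddit4 (0.33, adjusted p = 0.0129), beside 6.02%.

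Of 10 regulators of nutrient transporters, Mycn was called in WT without the block. Mycn encodes a transcription factor of the MYC family, and its binding to any promoter was not measured here. It was at 33.99, 37.7 and 35.4 FPKM in WT and 17.5, 24.8 and 18.1 FPKM in WT+PI3Kdi, a log2 change of -0.84 (adjusted p = 0.0405 without and 5.71e-05 with the block). In KO it was at 39.9, 36.1 and 38.7 FPKM without and 27, 24.98 and 24.3 FPKM with PI3Kdi (-0.59, adjusted p = 0.000870 with the block and 0.273 without). The groups were apart in both genotypes. Myc had log2 changes of 0.15 and 0.21 with adjusted p of 0.414 and 0.193. Arrdc4, which with Txnip restrains surface glucose carriers, fell in WT with the block (-0.72, adjusted p = 0.00783). Txnip fell with the block in both genotypes, by log2 changes of -0.31 (adjusted p = 0.0203) and -0.41 (adjusted p = 0.00517). Tfrc, the transferrin receptor, fell with the block in KO (-0.41, adjusted p = 0.0292). With the block and regardless of fold, 3 of the 10 fell and 0 rose in WT, beside 3.53% and 3.88% of all genes. In KO 3 fell and 1, not named here, rose, beside 4.06% and 6.02%.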

How the data were processed

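Poly(A) mRNA of 12 libraries was read in pairs of 75 bp from 300 ng of RNA. The authors aligned reads with STAR 2.7.1a to GRCm38.p6, counted them per gene with Ensembl 98 and deposited FPKM values scaled by TMM (edgeR) over summed exon length. The strand setting of the counting is not given in the sources used here. Of the 133 members, 22 overlap another analysed gene on the opposite strand, among them Slc16a6, Slc25a25, Slc31a1, Slc37a2 and Slc43a2. Slc25a25 averaged 2.52 FPKM and Naif1, which overlaps it, 1.80 FPKM. Whether reads of such genes were counted for the members is uncertain. All columns of sample values were mapped, with 0 unused.

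FPKM were taken as log2(FPKM + 0.1) and fitted over all 13283 genes and 4 groups with limma 3.58.1 (trend, R 4.3.3), and p-values were adjusted by Benjamini-Hochberg over all genes. The fit was run on simulated data with changes of a single size, 2-fold up or down, planted in WT+PI3Kdi. Recovery was required only of the fit with the block. Smaller changes were not simulated, so recovery of changes between 1.5-fold and 2-fold was not examined. A call needed an adjusted p under 0.05 and a fold change over 1.5. Vehicle and PI3Kdi libraries of one number deviated together within a genotype (r = 0.596 to 0.838 in WT and 0.594 to 0.780 in KO). Across genotypes the sign varied with the number (-0.409 to 0.730 in vehicle and -0.315 to 0.508 in PI3Kdi libraries), being negative for number 2 and positive for 1 and 3. The alternative block was the number within genotype (consensus correlation 0.757). The pairing comes from these correlations and the shared replicate numbers, since the labels do not tie a pair to a mouse.

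Depth was recovered from the steps of low FPKM values and gene lengths (GENCODE M21): 98.3 to 99.4% of held-out values were whole reads within 0.03 reads beyond rounding, where spacing alone gives 13.5 to 33.9%. These reads served for voom and to give precision. The alternatives were the block, the pseudocount, a filter at 1 FPKM, median-ratio scaling, the groups in the fit, voom and leaving out libraries.

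Members, classes and gene lists were chosen with earlier results of these data known. Genes named in the text were the called members, the 3 most abundant of each class, a fixed list of nutrient carriers, the 3 largest rises and falls without overlap in each comparison and the members nearest the threshold, and others are marked as chosen after their values were seen. A few genes that the rule would name are not reported here. Positions and promoters come from GENCODE and RefSeq.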

Additional observations from a re-analysis of the deposited data

How the results depend on the processing

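The 0 members called with PI3Kdi in WT became 3 with the replicate block within genotype, 2 with a block shared by all groups and 3 by voom with the block. Leaving out single libraries gave 0 to 0 without and 3 to 3 with the block, and leaving out both libraries of WT replicate 1, an alternative chosen after seeing the data, gave 3 with the block. The 0 in FOXO1-GFP KO became 3 with the block and 2 by voom with the block, single libraries left out gave 0 to 0 without and 1 to 6 with it, and both libraries of KO replicate 3 left out, also chosen after seeing the data, gave 1 with it. The 1 call between genotypes with PI3Kdi, Slc37a2, became 0 with the block, 3 with the shared block, 0 with a pseudocount of 1 FPKM, 0 with only the compared groups in the fit and 0 without both libraries of WT replicate 1, with and without the block. Single libraries left out gave 0 to 1 without the block, the 1 not being Slc37a2, and 0 to 0 with it. The cause of these changes was not tested. The counts between genotypes without PI3Kdi and for the difference of responses were 0 in every alternative run. Over 24 results on single members, no direction reversed: 462 values kept their side of the threshold, 49 passed it newly, and 19, all of Slc37a2, no longer passed. A group with a library left out holds 2, and the fit then pools the spread of all groups. Single libraries were left out only from the groups compared.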

Other observations

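Of the 47 genes with a carrier symbol under 1 FPKM, 0 were called by limma with PI3Kdi in either genotype without the block, beside 0.0979% of all genes in WT and 0.0452% in KO. With the block 7 were called in WT and 3 in KO, beside 2.57% and 2.79%. These calls lie near the floor, since none of the 7, which include the 3, had over 91 reads in a library. Slc4a4 had 1 to 27 reads, Slc22a21 2 to 60, Slc15a3 3 to 29 and Slc9a2 5 to 24. Slc28a2b, a near-identical copy of the nucleoside carrier Slc28a2, was at 0.38, 0.38 and 0.31 FPKM in WT and 0.95, 0.91 and 0.69 FPKM in WT+PI3Kdi, without overlap (log2 change 1.05, adjusted p = 0.000497 with and 0.106 without the block). In KO it was at 0.18 to 0.36 FPKM, and with PI3Kdi it was lower than in WT by a log2 difference of -1.45 (adjusted p = 0.00427 without and 0.0185 with the block). It rests on 12 to 91 reads in a library, and the assignment of reads between it and Slc28a2 is uncertain. The study lists Slc28a2b as induced by PI3Kdi in WT CTL and as lower in inhibited KO than in inhibited WT CTL. Between genotypes with PI3Kdi, 3 of the 47 were called without the block and 2 with it, beside 1.45% and 1.18% of all genes. Slc28a2b and Slc6a9 were called in both fits. Slc6a9, a glycine carrier just under the threshold, had a log2 difference of 1.19 (adjusted p = 0.0492 without and 0.0484 with the block). Slc16a5, on 5 to 56 reads in a library, had one of 1.28 (adjusted p = 0.0272 without and 0.159 with the block).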
